A study of Mus musculus with 6 samples.

Results

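Genes of the amino acid stress response and of tRNA charging were followed in early T cell progenitors, the most immature cells of the thymus, with and without the E proteins E2A and HEB. The set holds 34 genes, chosen by name for their function: 18 cytosolic aminoacyl-tRNA synthetases, 8 enzymes of serine, asparagine and one-carbon metabolism, and 8 regulators of the Atf4 pathway. All 34 were found among the 22609 genes listed and all 34 were tested, with no filter on low values. The thymus was fetal and the mice were C57BL/6. The first group (dKO, 3 libraries) carried floxed alleles of both E protein genes and a Cre recombinase from the Il7r locus, written E2Afl/flHEBfl/flIL7RCre, and was sorted as CD4-CD8-Lin-CD44+CD25-ckit+YFP+ cells. The second group (control, 3 libraries) was wild type and was sorted with the same markers but without YFP. The gate and the presence of Cre therefore went with the genotype, and the labels give no embryonic day and do not say whether animals were pooled.

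Aminoacyl-tRNA synthetases load each tRNA with its amino acid and so set the supply of charged tRNA for translation. When an amino acid runs short, uncharged tRNA activates the kinase Gcn2, encoded by Eif2ak4, which phosphorylates the initiation factor eIF2. General translation then falls while translation of the Atf4 mRNA rises, and the Atf4 protein, with partners of the C/EBP family, binds composite elements at genes for amino acid synthesis, import and tRNA charging. Atf4 is controlled largely at translation, so its RNA level is a poor measure of the protein. Dividing progenitors use the serine and one-carbon enzymes to make nucleotides, and Myc proteins are known activators of many of these biosynthetic genes.

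The values are the group means of counts divided by library size factors, as the authors' deposited table gives them, with the authors' own p-value adjusted over 16241 tested genes. A gene was called higher or lower at an adjusted p under 0.05. The table used here gives no value per library, so the error of an abundant gene enters only through that test. From the spacing of the low means, dKO libraries held about 24.3 to 27.0 M reads and control libraries about 18.2 to 22.6 M, taking each library to have the sum of its group. The targeted genes were lower in dKO: in the authors' deposited table Tcf3, which encodes E2A, averaged 364 in dKO and 8931 in control, and Tcf12, which encodes HEB, averaged 562 in dKO and 3845 in control. The labelled cell type carried Kit (19067 in dKO, 14094 in control) and Cd44 (2765 in dKO, 3220 in control) in the authors' deposited table, and Il2ra, which encodes the excluded CD25, was also high at RNA level (8536 in dKO, 8417 in control). Flt3, a receptor of the earliest progenitors, was lower in dKO (327 in dKO, 1080 in control, authors' adjusted p = 1.53e-08), and so was Cd4 (34.8 in dKO, 104 in control, authors' adjusted p = 0.0101), in the authors' deposited table. The B lineage genes Pax5 and Ms4a1, the monocyte gene Cd14, the globin genes Hba-a1, Hbb-b1 and Hbb-b2 and the stromal genes Pdgfra and Cdh5 stood at 0 for dKO and control alike in the authors' deposited table.

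The dKO cells had lower levels of many of the tRNA charging and biosynthetic genes, though Mthfd2, Psph and Sars among these were higher. Also higher was a pair of genes that restrain growth signalling, Ddit4 and Sesn2. Of the 34 genes, 11 were lower in dKO, 5 were higher and 18 did not pass. Over all tested genes 13.8% were lower and 15.1% higher, 29.0% in either direction. Abundant genes were called more often: of genes with a mean over both groups of at least 1000, 18.8% were lower and 25.1% higher, 43.9% in either direction. Of the 27 members in that range, 10 (37%) were lower and 3 (11.1%) were higher. Most of the differences were small: only Ddit4, Sesn2 and Mthfd2 among the higher genes and Asns and Iars among the lower ones reached 1.5-fold. The median log2 change was -0.17 over the 34 genes, against -0.01 over all tested genes.

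**Figure D1:**
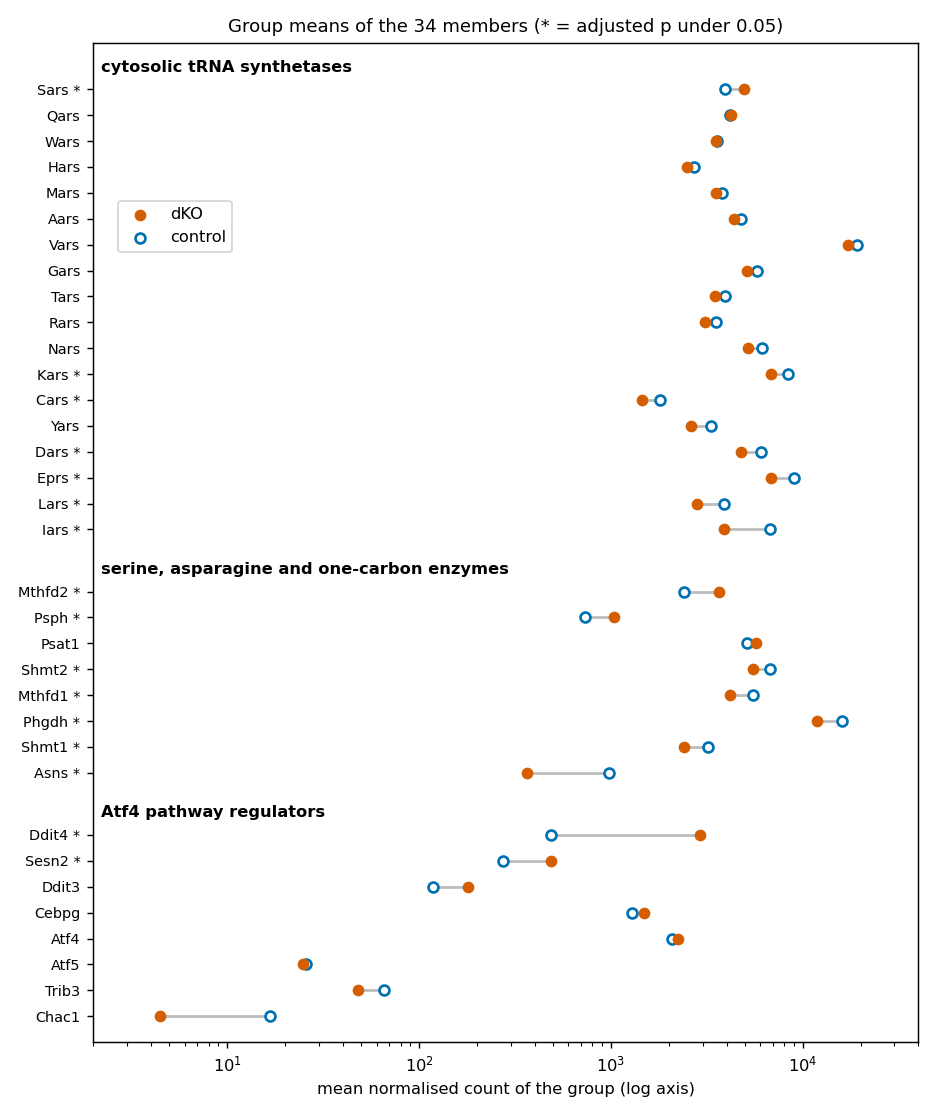
Mean normalised count of each member in dKO (filled) and control (open) cells on a log axis, grouped by role and ordered by log2 change; an asterisk marks an adjusted p under 0.05. Points are group means of 3 libraries without error bars, since the authors' table gives none. Most synthetases have the dKO point slightly left of the control point, Asns and Chac1 lie further left, and Ddit4 (2898 in dKO, 486 in control) lies far to the right.

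Differences among the cytosolic synthetases were small and mostly downward. Of 18, 6 were lower in dKO, 1 was higher and 11 did not pass. All 18 had a mean of at least 1000, so the shares to read beside these counts (33.3% lower and 5.56% higher) are the 18.8% and 25.1% of equally abundant genes. The isoleucyl-tRNA synthetase gene Iars differed most: in the authors' deposited table it averaged 3885 in dKO and 6703 in control, 1.73-fold lower (log2 change -0.79, authors' adjusted p = 3.89e-06). Lars, which charges leucine, averaged 2803 in dKO and 3895 in control in the authors' deposited table (log2 change -0.47, authors' adjusted p = 0.000137). Eprs, a fused enzyme for glutamate and proline, averaged 6851 in dKO and 8978 in control in the authors' deposited table (log2 change -0.39). The authors' deposited table also had lower dKO means for Dars, the aspartate enzyme (4755 in dKO, 6074 in control), Kars, the lysine enzyme (6781 in dKO, 8339 in control), and Cars, the cysteine enzyme (1445 in dKO, 1803 in control). Cars was the closest to the threshold, with an authors' adjusted p of 0.0464, and the asparagine enzyme Nars (5179 in dKO, 6089 in control in the authors' deposited table) lay just outside it with 0.0648.

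The seryl-tRNA synthetase gene Sars went the other way. In the authors' deposited table it averaged 4904 in dKO and 3936 in control (log2 change 0.32, authors' adjusted p = 0.0141). The 11 that did not pass were Nars, Yars, Rars, Vars, Gars, Tars, Aars, Mars, Hars, Wars and Qars, which charge asparagine, tyrosine, arginine, valine, glycine, threonine, alanine, methionine, histidine, tryptophan and glutamine in that order. Their log2 changes ran from -0.34 to 0.02 with a median of -0.16, and 10 of the 11 were below 0. The log2 change of Qars, 0.02, turned to -0.07 when both groups were scaled to the same total, and no called member changed sign. The valine enzyme Vars averaged 17079 in dKO and 19049 in control and missed the threshold in the authors' deposited table (authors' adjusted p = 0.194). Annotated exons of 8 members overlap those of another gene marked protein-coding in GENCODE: Aars, Hars, Mars, Yars, Shmt1, Shmt2, Ddit3 and Atf5. Exons of Psph also overlap those of Cct6a on the opposite strand, marked there as a processed transcript. Cct6a averaged 12055 in dKO and 16084 in control in the authors' deposited table. Pseudogenes are annotated for Kars and Phgdh. How the counting treated such reads is not given in the labels.

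**Figure D2:**
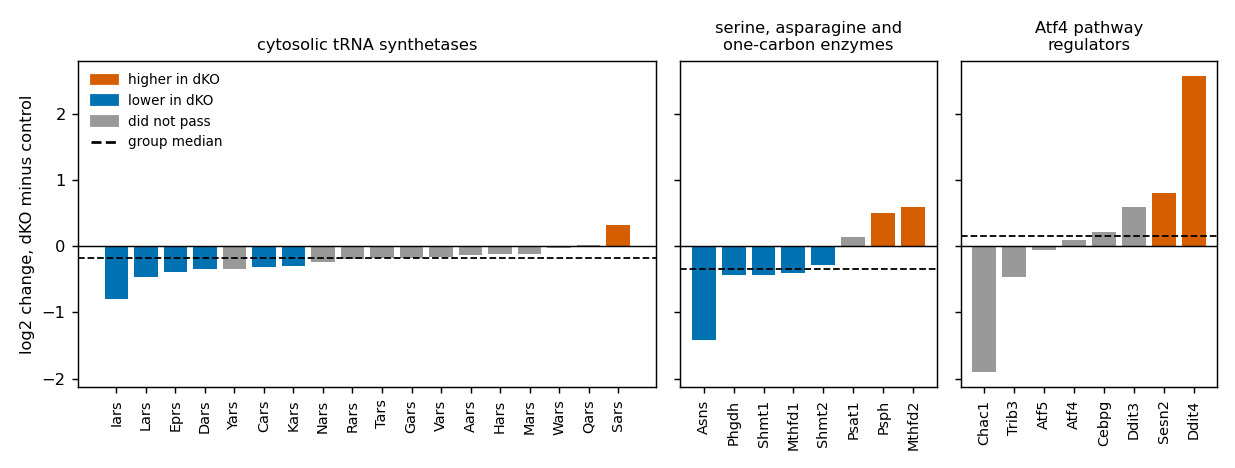
Log2 change (dKO minus control) of each member in 3 role groups, with bars coloured by call at adjusted p under 0.05 and a dashed line at the median of each group (-0.18, -0.35 and 0.16). Among synthetases 16 of 18 bars are below 0, the enzyme panel splits into 5 lower and 2 higher genes, and the regulator panel holds Ddit4 at 2.58 beside an uncalled Chac1 at -1.90.

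Promoters of several synthetases hold the letters of the composite element that Atf4 and C/EBP proteins bind, and the stretches are shown so that its forms can be compared between genes. RefSeq promoter windows (GRCm38.p6, 250 bases before to 50 after the start site) were found for 27 of the 34 members, in 29 windows. Not matched were Cars, Hars, Lars, Nars, Rars, Vars and Wars. The motif TGATGNAA was searched on both strands. It was found in the windows of 8 of the 27 members (29.6%), 5 of them synthetases, against 4.51% of the 27025 genes with a window. Stretches of 30 bases from 4 of the synthetases run 5′ to 3′ on the strand of the gene, with every copy of the motif in capitals:
Iars, chr13:49682126-49682155, plus strand: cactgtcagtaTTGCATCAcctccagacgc
Gars, chr6:55037960-55037989, plus strand: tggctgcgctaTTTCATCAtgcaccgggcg
Tars, chr15:11399655-11399684, minus strand: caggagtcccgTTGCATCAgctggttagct
Yars, chr4:129189895-129189924, plus strand: acgagctcagcTGATGCAAcccgacgggac

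The first base of the motif lay 8 bases after the start site in Iars and 15 bases before it in Tars (position -15). Of these 5 synthetases only Iars was called. Aars, Gars, Tars and Yars did not pass, with log2 changes of -0.13, -0.17, -0.18 and -0.34. A search for CACGTG, the E-box bound by Myc and Max, found it in the windows of Aars, Iars and Tars, 3 of the 27 members (11.1%), against 8.09% of all genes with a window. The E protein E-boxes CAGCTG and CAGGTG, on both strands, were in the windows of 6 of the 27 members (22.2%: Tars, Yars, Shmt1, Atf4, Atf5 and Chac1), against 35.9% of all genes with a window. These matches describe letters only and do not show binding.

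Of the 8 metabolic enzymes, 5 were lower in dKO, 2 were higher and 1 did not pass. The shares, 62.5% lower and 25% higher, stand beside 13.8% and 15.1% of all tested genes. Among genes with a mean of at least 1000, where 6 of the 8 fall, these shares were 18.8% and 25.1%. Asparagine synthetase, Asns, makes asparagine from aspartate and is among the best known Atf4 targets. It averaged 364 in dKO and 973 in control in the authors' deposited table, 2.67-fold lower (log2 change -1.42, authors' adjusted p = 3.07e-05). Its dKO mean allows 2 ways of dividing the reads among the libraries. One gives normalised counts of 375, 288 and 431, the other 27.7, 635 and 431, so the spread between dKO libraries is not settled, and both lie below the control mean in every library. The motif TGATGNAA stands 23 bases before the start site of Asns (position -23), in the form TGATGAAA. The 250 bases before the start site, at chr6:7693210-7693459 on the minus strand of GRCm38.p6, read as follows, with the motif in capitals:
Asns: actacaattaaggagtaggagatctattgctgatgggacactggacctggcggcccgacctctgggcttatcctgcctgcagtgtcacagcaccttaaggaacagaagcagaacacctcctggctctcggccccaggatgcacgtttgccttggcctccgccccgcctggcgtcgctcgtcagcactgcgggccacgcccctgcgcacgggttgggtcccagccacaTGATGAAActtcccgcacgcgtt

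The 3 steps of serine synthesis from glycolysis did not move together. Phgdh, the first enzyme of the pathway, averaged 11897 in dKO and 15998 in control in the authors' deposited table (log2 change -0.43, authors' adjusted p = 4.93e-05). Psat1, the transaminase of the next step, averaged 5668 in dKO and 5131 in control and missed the threshold in the authors' deposited table (authors' adjusted p = 0.373). Psph, the phosphatase that releases serine, averaged 1037 in dKO and 729 in control in the authors' deposited table, 1.42-fold higher (authors' adjusted p = 0.00761). The first step was thus lower and the last step higher in dKO.

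Of the 4 one-carbon enzymes of the cytosol and the mitochondrion, 3 were lower in dKO and 1 was higher. The cytosolic serine hydroxymethyltransferase Shmt1 averaged 2397 in dKO and 3219 in control in the authors' deposited table (log2 change -0.43, authors' adjusted p = 0.00129). The trifunctional folate enzyme Mthfd1, also cytosolic, averaged 4175 in dKO and 5525 in control in the authors' deposited table (log2 change -0.40, authors' adjusted p = 0.000605). The mitochondrial partner Shmt2 was lower by less, with means of 5491 in dKO and 6707 in control in the authors' deposited table (log2 change -0.29, authors' adjusted p = 0.0193). Mthfd2, the mitochondrial methylenetetrahydrofolate dehydrogenase, was higher, with 3636 in dKO and 2414 in control in the authors' deposited table (1.51-fold, authors' adjusted p = 2.72e-06). Mthfd2 and Asns, both known Atf4 targets, were thus called in opposite directions.

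The Atf4 pathway regulators held the largest rise of the set. Ddit4 encodes Redd1, a stress-induced inhibitor of the growth kinase mTORC1, and averaged 2898 in dKO and 486 in control in the authors' deposited table, 5.96-fold higher (log2 change 2.58, authors' adjusted p = 4.06e-74). By the authors' p-value it ranked 52 among all tested genes. The control mean allows 4 divisions of the reads among libraries, and no control library exceeds a normalised count of 941 in any of them. Sesn2, a leucine sensor that also restrains mTORC1, averaged 484 in dKO and 275 in control in the authors' deposited table, 1.76-fold higher (authors' adjusted p = 0.0023). For means up to 100 the group mean has a unique solution in whole reads per library, while higher means can allow more than 1. Libraries are named here by their size factors. For the dKO mean of Sesn2 1 solution was found, though this mean lies above the range in which the recovery was checked. That solution gave normalised counts of 430, 441 and 580 in the libraries of size factor 1.16, 1.08 and 1.04. The control reads of Sesn2 allow 2 solutions, which run from 214 to 335 or from 135 to 459. The groups do not overlap under the first and overlap under the second. A separation upward in dKO was found in 14.0% of 2280 genes with recovered reads and neither mean above 100. Their average of both means was at least 10, and both Sesn2 means lie above that range.

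Atf4 itself and most of its partners and targets in this group did not pass. Atf4 averaged 2232 in dKO and 2078 in control in the authors' deposited table (authors' adjusted p = 0.658), and Cebpg, its C/EBP partner, averaged 1485 in dKO and 1283 in control (authors' adjusted p = 0.433). Ddit3, which encodes the stress factor Chop, had normalised counts of 164, 210 and 163 in the dKO libraries, and 131, 85.1 and 138 in the control libraries. Every dKO library lay above every control library, yet the gene did not pass. Its log2 change was 0.60, with an authors' adjusted p of 0.186. Such a separation upward in dKO was found in 14.0% of the 2280 genes whose reads could be recovered in every library. For these the average of both means was at least 10 and neither mean was above 100, a range that Ddit3 itself lies above. Annotated exons of Ddit3 and of the synthetase gene Mars overlap on opposite strands, and the labels do not say that counting used strand, so reads of the overlap cannot be assigned to either gene.

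Trib3, a pseudokinase induced by Atf4 and Chop, had normalised counts of 22.5, 78.1 and 43.3 in the dKO libraries, and 61.5, 63.0 and 72.9 in the control libraries. It did not pass, with an authors' adjusted p of 0.642. The dKO libraries lay on both sides of the control libraries, and the log2 change ran from -1.0 to -0.12 when 1 library was left out. Atf5, a relative of Atf4, had 16.4, 32.6 and 25.0 in the dKO libraries and 26.4, 27.3 and 23.1 in the control libraries, so the groups overlapped. Its log2 change was -0.05, and it was 0.17 without the dKO library of size factor 1.16. Exons of Atf5 overlap those of Nup62 on the opposite strand. Chac1, a glutathione-degrading enzyme and a known Atf4 target, rested on few reads: 8, 7 and 0 reads in the dKO libraries, against 23, 17 and 8 reads in the control libraries. Its normalised counts were 6.92, 6.51 and 0 in dKO libraries and 22.5, 17.9 and 9.72 in control libraries. Every dKO library lay below every control library, and the gene did not pass. Its log2 change was -1.90, with an authors' adjusted p of 0.334. A separation downward in dKO was found in 19.8% of the same 2280 genes.

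**Figure D3:**
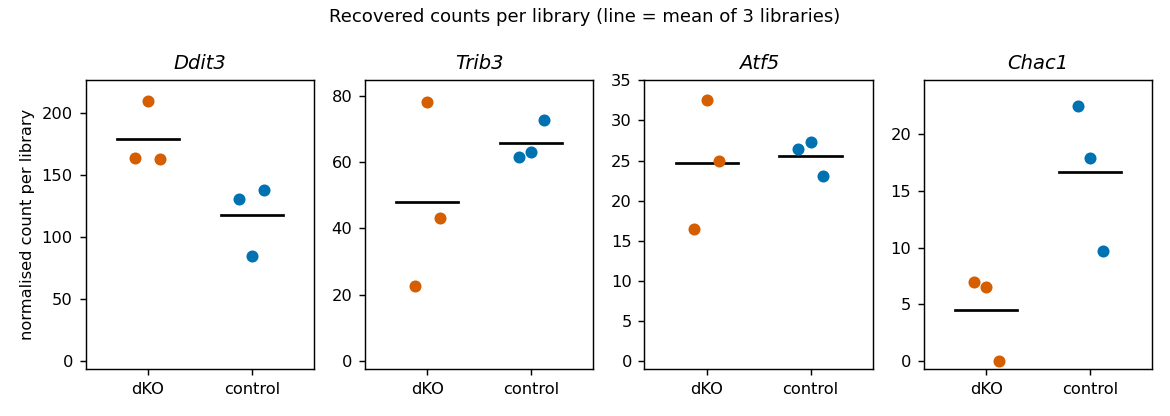
Normalised counts per library of Ddit3, Trib3, Atf5 and Chac1, recovered from the group means; each point is 1 library, 3 per group, and the line is the group mean. The dKO points of Ddit3 (163 to 210) lie above all control points (85.1 to 138), those of Chac1 (0 to 6.92) lie below all control points (9.72 to 22.5), and the groups overlap in Trib3 and Atf5.

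Of these 4 genes of low abundance, Chac1 and Trib3 hold TGATGNAA in their windows, while Ddit3 and Atf5 do not. The stretches are shown in the same way as for the synthetases:
Chac1, chr2:119351038-119351067, plus strand: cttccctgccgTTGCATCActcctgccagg
Trib3, chr2:152344028-152344057, minus strand: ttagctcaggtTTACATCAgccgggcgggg

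The motif began 193 bases before the start site of Chac1 (position -193) and 15 bases after that of Trib3. The windows of the members higher in dKO (Ddit4, Sesn2, Psph, Sars and Mthfd2) did not hold these letters, nor did those of the lower members Dars, Eprs, Kars, Phgdh, Shmt1, Shmt2 and Mthfd1.

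Genes around the pathway were taken from lists chosen by role. The remaining cytosolic synthetase subunits and the scaffold of the multi-synthetase complex had 1 of 6 genes lower (16.7%, against 13.8% of all tested genes) and none higher. That gene was Farsa, a subunit of the phenylalanine enzyme, with 3197 in dKO and 4415 in control in the authors' deposited table (authors' adjusted p = 0.000161). Its partner subunit Farsb averaged 2853 in dKO and 3493 in control and missed the threshold in the authors' deposited table (authors' adjusted p = 0.0586). Mitochondrial synthetases, which charge tRNAs inside the organelle, had 8 of 17 lower and none higher. The share lower was 47.1%, against 13.8% of all tested genes and 18.8% of genes with a mean of at least 1000. Their median log2 change was -0.34, and all 17 log2 changes were below 0. In the authors' deposited table Tars2 averaged 1566 in dKO and 2507 in control (authors' adjusted p = 4.96e-07), and Pars2 averaged 396 in dKO and 622 in control. Lars2, with 275373 in dKO and 316470 in control, held the highest mean of all genes in both groups and missed the threshold in the authors' deposited table (authors' adjusted p = 0.0778). The next of the list, Iars2, averaged only 2816 in dKO and 3554 in control. Whether the reads counted for Lars2 all came from its mRNA was not tested.

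Among the 15 genes of eIF2 and its kinases and phosphatases, 3 were higher, 2 were lower and 10 did not pass. The share called was 33.3%, near the 29.0% of all tested genes and below the 43.9% of abundant genes, among which 11 of the 15 fall. The kinase of the amino acid branch, Eif2ak4 (Gcn2), averaged 846 in dKO and 1574 in control in the authors' deposited table, a fall of 1.86-fold (authors' adjusted p = 1.24e-08). Of the 3 kinases of other branches, a pair was higher: in the authors' deposited table Eif2ak2, the double-stranded RNA kinase, averaged 2187 in dKO and 1224 in control (authors' adjusted p = 0.00314), and Eif2ak3, the kinase of the endoplasmic reticulum, averaged 388 in dKO and 254 in control (authors' adjusted p = 0.0303). Eif2ak1, the heme-regulated kinase, averaged 2309 in dKO and 2248 in control in the authors' deposited table (authors' adjusted p = 0.935), which was not a call. Ppp1r15b, a subunit of the eIF2 phosphatase, averaged 4652 in dKO and 3358 in control in the authors' deposited table (authors' adjusted p = 0.000157). The other gene that was lower was Eif2b3, a subunit of the exchange factor for eIF2 (733 in dKO, 1039 in control in the authors' deposited table). The most abundant gene of the list that did not pass was Eif2s3x, with 6571 in dKO and 6914 in control in the authors' deposited table.

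Of 16 amino acid transporters, 3 were lower, 2 were higher and 11 did not pass. The share called, 31.2%, was close to the 29.0% of all tested genes. Slc43a1, an importer of large neutral amino acids, averaged 430 in dKO and 1001 in control in the authors' deposited table (authors' adjusted p = 3.45e-10), and Slc38a2, a neutral amino acid importer, averaged 7806 in dKO and 11373 in control (authors' adjusted p = 2.18e-07). Slc36a4, a proton-coupled amino acid transporter, had normalised counts of 158, 225 and 195 in the dKO libraries and 95.7, 54.6 and 59.5 in the control libraries. The groups did not overlap, and Slc36a4 was called higher with an authors' adjusted p of 0.000563. Such a separation upward was found in 14.0% of the 2280 genes with neither mean above 100, a range that its dKO mean (193) lies above. The cystine importer Slc7a11, a known Atf4 target, averaged 201 in dKO and 245 in control and missed the threshold in the authors' deposited table (authors' adjusted p = 0.526). Slc38a1, with 7844 in dKO and 8313 in control in the authors' deposited table, was the most abundant transporter not called.

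Other Atf4 targets and related genes, with the sestrin genes Sesn1 and Sesn3 counted among the related genes, were called about as often as genes in general. Of 20, 4 were lower (20%), 2 were higher (10%) and 14 did not pass, against 13.8% and 15.1% of all tested genes, with a median log2 change of -0.30 over the 19 genes detected in both groups. The sestrin genes Sesn1 and Sesn3 diverged: in the authors' deposited table Sesn3 averaged 594 in dKO and 137 in control, 4.32-fold higher (authors' adjusted p = 7.55e-18), while Sesn1 averaged 875 in dKO and 1987 in control, 2.27-fold lower (authors' adjusted p = 4.49e-11). Xpot, the nuclear exporter of tRNA, averaged 3031 in dKO and 5267 in control in the authors' deposited table, a fall of 1.74-fold (authors' adjusted p = 1.3e-10). Aldh18a1, an enzyme of proline synthesis, averaged 3562 in dKO and 4021 in control and missed the threshold in the authors' deposited table. The stress targets Atf3, Nupr1, Gdf15 and Fgf21 had means of 18.3 or less in both groups of the deposited table and did not pass, and Fgf21 was listed at 0 in control.

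Further folate and methionine cycle enzymes had 6 of 20 lower, 1 higher and 13 that did not pass, with a median log2 change of -0.29. The share called was 35%, between the 29.0% of all tested genes and the 43.9% of abundant genes, among which 11 of the 20 fall. By direction, 30% were lower and 5% higher, against 13.8% and 15.1% of all tested genes. Gcsh, a protein of the glycine cleavage system, averaged 1181 in dKO and 1948 in control in the authors' deposited table (authors' adjusted p = 8.2e-07). Ahcy, which removes S-adenosylhomocysteine, averaged 6685 in dKO and 9559 in control in the authors' deposited table (authors' adjusted p = 1.5e-06), and Sfxn1, a mitochondrial serine carrier, averaged 3195 in dKO and 4573 in control. Mthfs, with 388 in dKO and 252 in control in the authors' deposited table, was the gene that was higher. Mat2a, which makes S-adenosylmethionine, averaged 9955 in dKO and 9875 in control in the authors' deposited table (authors' adjusted p = 0.983).

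The unfolded protein response of the endoplasmic reticulum shares the eIF2 and Atf4 step with amino acid shortage. Of its chaperones and stress genes, 10 of 15 were higher, none was lower and 5 did not pass, with a median log2 change of 0.64. The share higher was 66.7%, against 15.1% of all tested genes. It was 25.1% among genes with a mean of at least 1000, where 13 of the 15 fall. In the authors' deposited table the chaperone Hsp90b1 averaged 23925 in dKO and 11409 in control, 2.1-fold higher (authors' adjusted p = 1e-15), Hyou1 averaged 4717 in dKO and 2489 in control, and the disulfide isomerase Pdia4 averaged 9233 in dKO and 4789 in control. Calr averaged 9997 in dKO and 8729 in control and missed the threshold in the authors' deposited table. Of the Myc family list, 3 of 4 genes were lower: in the authors' deposited table Myc averaged 3451 in dKO and 9311 in control, Mycn 2259 in dKO and 7132 in control, and Mycl1 8.63 in dKO and 42.0 in control. The share to read beside 3 of these 4 genes is the 13.8% of all tested genes that were lower. The fall of Mycl1 was 4.87-fold with all libraries. It ran from 3.65-fold, without the dKO library of size factor 1.04, to 8.13-fold, without the dKO library of size factor 1.16. Max, the shared partner of the Myc proteins, averaged 2264 in dKO and 2238 in control and missed the threshold in the authors' deposited table.

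**Figure D4:**
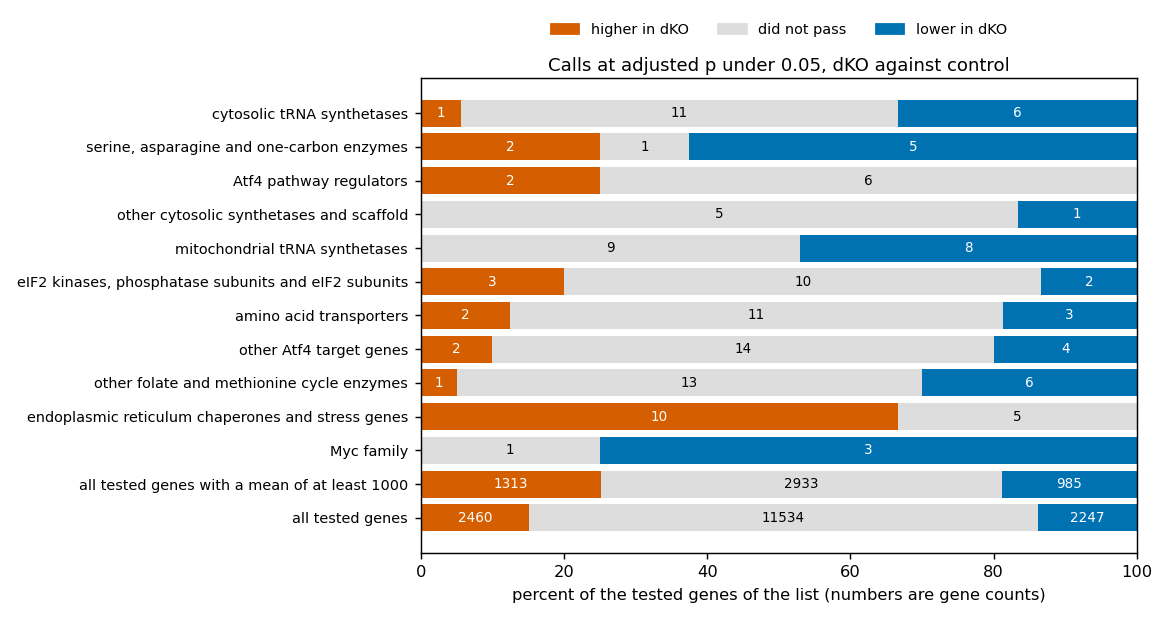
Share of tested genes higher in dKO, not passing, or lower in dKO at adjusted p under 0.05, for each list and for all tested genes, with gene counts in the bars. The endoplasmic reticulum list has 10 higher and 0 lower genes, the mitochondrial synthetases have 0 higher and 8 lower, and all tested genes have 2460 higher and 2247 lower.

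Lists of genes used as markers of other cells differed between the groups to unlike degrees. Of 11 innate lymphoid markers, 10 were higher in dKO and their means summed to 77567 in dKO and 20627 in control, with none at 0. Most of the dKO sum came from Icos (28812), Gata3 (22961) and Id2 (12733). Of 7 tested myeloid markers, 3 were lower and 1 was higher, and their means summed to 2593 in dKO and 8990 in control, with Cd14 at 0. Mpo (7310) held most of that control sum. Of 8 mature T cell markers, 6 were lower and 2 were higher. Of 6 tested B lineage markers 2 were lower, of 7 stromal markers 1 was lower, and none of 5 erythroid markers was called. Over all tested genes 13.8% were lower and 15.1% higher. The part of these markers in the results above was not tested. In bulk RNA, fewer cells of a type and less RNA per cell cannot be told apart.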

How the data were processed

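RNA sequencing of 6 libraries (3 dKO, 3 control) was analysed from a table the authors deposited. Per the labels' protocols, RNA of sorted cells was amplified with a low-input SMARTer kit, so reads are not independent molecules and counting intervals cover counting error only. Build mm9, TopHat2 2.0.14, DESeq version 2 and bcl2fastq 1.8.4 are named in the submitters' processing notes. The gene counter is not given in the sources used here, nor is the annotation. Per the file headers, the table holds the signal of each group (a mean normalised count), the fold as a ratio and the authors' p-values and adjusted p-values. Of 22609 rows, 6368 were not tested. Log2 changes are ratios of the deposited means. The design named a count test for values per library, which the table does not hold, so the authors' test was used, across all genes. The labels do not say whether libraries came from separate animals, so the spread behind the p-values may be technical.

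Reads per library were recovered for means up to 100 (listed genes, up to 500). Each mean is a sum of whole reads times 3 steps, and solutions matched the deposited digits. Over means up to 100, 100% of 5361 dKO and 5259 control values had a unique solution, against 0% of 1000 random values each. In simulated reads of 500 genes per group, 100% of unique solutions were right. Members and lists were chosen with earlier results of these data known. Every member was accounted for, and related lists were described by their 3 called genes of lowest adjusted p and their most abundant gene that was not called. Genes named beyond this (Eif2ak1, Eif2ak3, Flt3, Cd4, Eif2b3, Slc7a11, Mthfs, Atf3, Nupr1, Gdf15, Fgf21 and those of the closing observations) were chosen after their values were seen. Some results that this rule takes are not reported here. Python 3.11.15, numpy 2.4.6 and pandas 2.3.3 were used.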

Additional observations from a re-analysis of the deposited data

How the results depend on the processing

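Requiring at least 1.5-fold beside the adjusted p moved most counts: 5 members stayed called in place of 16, 1 cytosolic synthetase in place of 7, 2 metabolic enzymes in place of 7, 0 genes of the remaining synthetase and scaffold list in place of 1, 3 mitochondrial synthetases in place of 8, 3 genes of the eIF2 list in place of 5, and 3 further folate enzymes in place of 7. Over the 16241 tested genes, 3237 stayed called at 1.5-fold in place of 4707, 1739 of them higher and 1498 lower. Of the 5 members, 3 were higher and 2 were lower, so the lower members no longer outnumbered the higher ones. At an adjusted p under 0.01, 4 cytosolic synthetases and 4 mitochondrial synthetases were called. With genes under a mean of 10 removed and the adjustment redone, 2 genes of the remaining synthetase and scaffold list were called, since fewer genes were tested. The other counts stayed within 1.5 times, and the medians of the 3 role groups kept their sign. Scaling to the same sum, a log2 shift of 0.08, turned the sign of Qars alone among the 34 members. Leaving out each library in turn was possible for Atf5, Ddit3, Chac1 and Trib3: their log2 changes ran from -0.30 to 0.17, from 0.41 to 0.73, from -2.36 to -1.31 and from -1.0 to -0.12. For abundant genes it could not be done, since only group means were available. No paired analysis was possible because the columns hold group means without replicate numbers.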

Other observations

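The cytosolic synthetases were also split by membership of the multi-synthetase complex, a grouping chosen after the values were seen and given without a test. Of the 8 complex members among the 18 genes (Dars, Eprs, Iars, Kars, Lars, Mars, Qars and Rars), 5 were lower in dKO, none was higher and 3 did not pass, with a median log2 change of -0.33. Of the other 10 genes, 1 was lower (Cars), 1 was higher (Sars) and 8 did not pass, and their median was -0.16. The shares lower were 62.5% in the complex and 10% outside it, beside 18.8% of equally abundant genes. The scaffold genes of the complex did not follow in the authors' deposited table: Aimp1 averaged 1500 in dKO and 1490 in control, Aimp2 averaged 1372 in dKO and 1531 in control, and Eef1e1 averaged 1273 in dKO and 1260 in control, and none passed.

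Reads per library are known for several related genes of low abundance, most of which were not called. A called pair is given here, chosen after the values were seen. Stc2, a known Atf4 target and a secreted glycoprotein, had normalised counts of 149, 90.2 and 226 in the dKO libraries and 35.1, 54.6 and 10.9 in the control libraries. The groups did not overlap, with an authors' adjusted p of 0.00722. Aldh1l1, which oxidises formyl tetrahydrofolate, had 84.8, 51.2 and 37.6 in the dKO libraries and 232, 179 and 137 in the control libraries. These did not overlap, with an authors' adjusted p of 0.000124. Of the same 2280 genes, with an average of both means of at least 10 and neither mean above 100, 14.0% separated upward and 19.8% downward in dKO. Stc2 (155 in dKO) and Aldh1l1 (183 in control) lie above that range.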
